A study of Mus musculus with 4 samples.

Results

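The renin-angiotensin and membrane peptidase genes *Agt*, *Ren1*, *Ace*, *Enpep*, *Agtr1a*, *Agtr2*, *Mme*, *Anpep* and *Dpp4* were followed in RNA-seq of the developing mouse kidney. These 9 genes were chosen by symbol from the 52636 genes of the count files, and each symbol matched 1 Ensembl gene. The libraries were made from tdTomato+ cells sorted by FACS from kidneys of embryos at about E12.75, 48 h after tamoxifen was first given, with 5000 cells per library. Control embryos (2 libraries) carried the *Eya1*CreER allele and the R26-tdTomato reporter. *Eya1*cKO embryos (2 libraries) carried the same *Eya1*CreER allele and reporter together with floxed *Eya1* on both alleles. Tamoxifen was given to the mothers of both groups, and CreER activity, driven from the *Eya1* locus, decides which cells are labelled. The mice were of a mixed strain background that includes C57BL/6J. By the methods, suspensions from several kidneys were pooled ahead of the sort, so the libraries of a genotype are separate portions of sorted cells, and *P* values measure the spread between such portions. Pairs of values are given in the order of library 1 and library 2 of a genotype.

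Angiotensinogen, the product of *Agt*, is cut by renin to angiotensin I, which angiotensin-converting enzyme turns into angiotensin II. Angiotensin II acts on the receptors AT1 and AT2 and is degraded by aminopeptidase A, the product of *Enpep*. Neprilysin (*Mme*), aminopeptidase N (*Anpep*) and dipeptidyl peptidase 4 (*Dpp4*) are cell-surface peptidases that cleave several small peptides, angiotensins among those of neprilysin and aminopeptidase N. In the mature kidney these surface enzymes are known from the proximal tubule brush border and the podocyte, and renin from the juxtaglomerular arteriole. AT2 is known from fetal mesenchyme.

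The 4 libraries held from 17457452 to 37999342 reads on genes, with the lower totals in *Eya1*cKO. Reads on no gene were from 12.9% to 13.9% of all reads in the controls and from 20.9% to 22.7% in *Eya1*cKO, while the share left unaligned was from 6.32% to 6.69% and from 12.7% to 12.9%. Both shares move with genotype in every result given here, and their part was not tested. The targeted gene *Eya1* had 6612 and 6420 reads in the controls against 377 and 219 in *Eya1*cKO, which is -3.60 on the log2 scale with an adjusted *P* of 1.9e-04 in edgeR. A list of 10 nephron progenitor markers, *Eya1* among them, summed to 2088 and 2090 CPM in the controls. CPM is the read count relative to the TMM-scaled total of reads on genes, on its usual scale.

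Most of these genes were higher in *Eya1*cKO. Of the 9 genes, 8 had enough reads to be tested, and 7 of them rose with an adjusted *P* under 0.05 in edgeR's quasi-likelihood test over 19041 genes: *Enpep*, *Dpp4*, *Mme*, *Agtr2*, *Anpep*, *Ace* and *Agtr1a*. Over all genes tested, 9.56% had an adjusted *P* under 0.05 and 5.15% were called higher and 4.41% lower. DESeq2 called the same number of the 9 genes, 7, beside 15.7% of the genes it tested. The eighth, *Ren1*, did not pass, and *Agt* was near 0 in every library. The median log2 fold change (*Eya1*cKO over control) of the 8 genes was 1.70, beside 0.016 for all genes tested. In 8 genes both *Eya1*cKO libraries lay above both controls, as they did in 25.3% of all genes tested, while both lay below in 30% of those genes. The summed level of the 9 genes was 331 and 331 CPM in the controls but 1048 and 1014 CPM in *Eya1*cKO. In bulk samples, more cells of a type and more RNA per cell cannot be told apart. Leaving out control 1 or control 2 left 1 of the 9 genes called, *Enpep*, while the calls over all genes fell to 23 in either case. Leaving out *Eya1*cKO 1 or *Eya1*cKO 2 gave 8 and 7 of the 9, with 7414 and 7925 calls over all genes. In each of these fits the genotype left with 1 library adds nothing to the estimate of the spread, which comes from the 2 libraries of the other genotype alone.

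**Figure D1:**
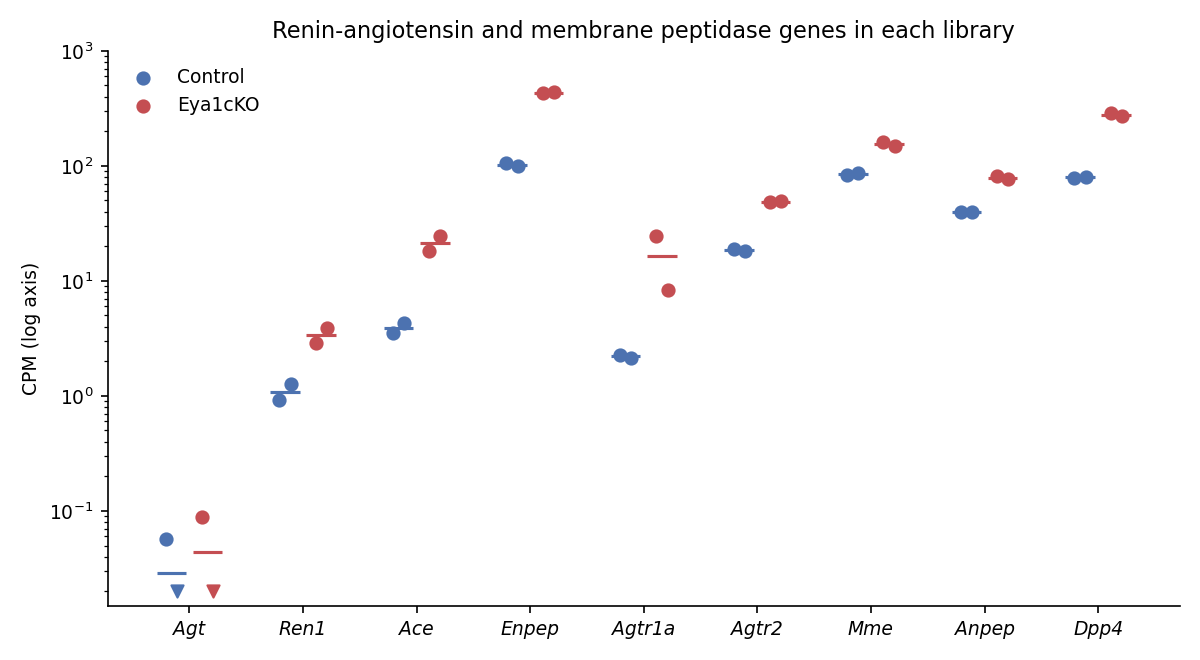
Level of each gene in each library, in CPM on a log axis, with control libraries in blue and *Eya1*cKO libraries in red. Points are single libraries, short lines are means of 2 libraries, and triangles at the lower edge mark libraries with 0 reads. For every gene except *Agt* both red points lie above both blue points, and *Agtr1a* shows the widest gap between the *Eya1*cKO libraries.

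The DNA just before the start site is shown for 6 of the genes, as a description of its letters. Of the 9 genes 8 had entries in RefSeq on GRCm38.p6, with 11 start sites, and *Agtr1a* is named only. The 60 bases that end at the first RefSeq start site of each gene are given 5′ to 3′ on the strand of the gene, with capitals for the TATA box TATAAA or the GC box GGGCGG, read on either strand.
*Enpep*, chr3:129332750-129332809, minus strand: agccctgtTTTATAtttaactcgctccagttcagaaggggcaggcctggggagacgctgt
*Dpp4*, chr2:62412232-62412291, minus strand: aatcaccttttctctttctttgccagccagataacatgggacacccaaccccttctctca
*Ace*, chr11:105967888-105967947, plus strand: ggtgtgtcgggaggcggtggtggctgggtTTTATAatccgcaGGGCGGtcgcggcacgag
*Anpep*, chr7:79848211-79848270, minus strand: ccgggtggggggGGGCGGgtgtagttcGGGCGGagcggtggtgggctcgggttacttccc
*Agtr2*, chrX:21484564-21484623, plus strand: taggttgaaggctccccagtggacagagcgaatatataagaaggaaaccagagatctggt
*Ren1*, chr1:133350614-133350673, plus strand: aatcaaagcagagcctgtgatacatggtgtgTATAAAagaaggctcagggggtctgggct

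*Enpep* and *Ace*, which rose, and *Ren1*, which did not pass, hold TATAAA in these stretches, and *Ace* and *Anpep* hold the GC box. *Dpp4* and *Agtr2*, which rose, hold neither as these exact letters. Only exact letters were searched, so a variant such as tatataag in the *Agtr2* stretch was not marked. In the 250 bases before each start site TATAAA stood on either strand in 5 of the 11 windows, beside 12.4% of 32851 promoters. On the strand of the gene its first base lay at -29 from the start site in *Ren1*, -30 in *Agt* and -227 in *Dpp4*. On the opposite strand it lay at -52 in *Enpep* and -31 in *Ace*. GGGCGG stood in 5 of the 11 windows, beside 32.7%. The 5 windows with GGGCGG belong to *Ace*, *Anpep* and *Mme*, with 3 of them from *Mme*, whose start sites lie close enough for windows to overlap. The *Six2* core motif TCAGGTT stood in 1 window, that of *Dpp4*, beside 3.49%. The HNF1 recognition unit GTTAAT (6.43% of promoters), the cAMP response element TGACGTCA (1.55%) and the left element TTCAGCACC of the REST motif (0.301%) were in none of the 11 windows on either strand. The motifs did not overlap one another, other than neighbouring GC boxes of *Ace*. A match is a description of these letters and not a binding site.

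The substrate and the first enzyme of the cascade were the least abundant. *Agt*, on chromosome 8 from 124556534 to 124569706 of GRCm38 (minus strand), encodes the precursor of all angiotensin peptides. It had 2 and 0 reads in the controls against 2 and 0 in *Eya1*cKO. All 4 libraries were at or under the limit of 3 counts, which corresponds to 0.0859 and 0.0801 CPM for the controls against 0.133 and 0.171 CPM for *Eya1*cKO, so neither its expression nor a change was detectable at this depth. These limits cover counting error only.

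*Ren1*, on chromosome 1 from 133350510 to 133360325 (plus strand), encodes renin, the protease that starts the cascade. It had 32 and 47 reads in the controls against 65 and 68 in *Eya1*cKO, or 1.09 ± 0.24 and 3.38 ± 0.707 CPM (SD, n = 2 libraries each). Both *Eya1*cKO libraries lay above both controls, but the log2 fold change of 1.60 had a 95% interval from -0.11 to 3.31 and missed the threshold, with an adjusted *P* of 0.20 in edgeR. The call was made without *Eya1*cKO 1 (adjusted *P* = 0.049), and the alternatives gave adjusted *P* values from 0.049 to 0.72. Some mouse strains carry a second renin gene, *Ren2*, that C57BL/6J lacks, and in mice of mixed background reads from it could have been counted on *Ren1*.

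*Ace*, on chromosome 11 from 105967945 to 105989964 (plus strand), encodes angiotensin-converting enzyme, known from endothelium and the proximal tubule brush border. It had 124 and 161 reads in the controls against 414 and 428 in *Eya1*cKO. The level went from 3.93 ± 0.529 to 21.4 ± 4.3 CPM, a 5.44-fold rise that exceeded the spread within either genotype (log2 fold change 2.41, standard error 0.40, adjusted *P* = 0.015 in edgeR). The call was lost without control 1 (adjusted *P* = 0.41) and without control 2 (adjusted *P* = 0.41), and the alternatives ranged from 6.7e-07 to 0.41. Exons of the antisense gene *Gm11651* cover 5.58% of its exonic length, and the counts do not separate its somatic transcripts from those of the germline form.

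*Enpep*, on chromosome 3 from 129269175 to 129332720 (minus strand), encodes aminopeptidase A, which removes the first residue of angiotensin II and is found on podocytes and proximal tubule cells. It was the most abundant of the 9 genes, with 3660 and 3733 reads in the controls against 9612 and 7632 in *Eya1*cKO. After scaling the libraries of each genotype were close together, with 105 and 99.7 CPM for the controls against 425 and 435 CPM for *Eya1*cKO. The rise was 4.21-fold (log2 fold change 2.07, standard error 0.08, adjusted *P* = 7.8e-05 in edgeR). In the stretch printed for it, TATAAA lies on the opposite strand. Its rise passed the threshold under all 11 alternatives run, with log2 fold changes from 2.02 to 2.11. *Enpep* took from 30.1% to 31.6% of the summed CPM of the 9 genes in the controls and from 40.6% to 42.9% in *Eya1*cKO.

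The receptor genes differed in how far their *Eya1*cKO libraries were apart. *Agtr2*, on chromosome X from 21484544 to 21489164 (plus strand), encodes AT2, the angiotensin II receptor that is prominent in fetal tissue. It had 662 and 677 reads in the controls against 1092 and 867 in *Eya1*cKO. With 19.0 and 18.1 CPM for the controls against 48.3 and 49.4 CPM for *Eya1*cKO the genotypes were well apart, a 2.64-fold rise (log2 fold change 1.40, standard error 0.20, adjusted *P* = 0.0090 in edgeR). The call was lost without control 1 (adjusted *P* = 0.36) and without control 2 (adjusted *P* = 0.40), within a range from 4.7e-07 to 0.40 over the alternatives.

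*Agtr1a*, on chromosome 13 from 30336441 to 30382867 (plus strand), encodes AT1a, the main receptor for the pressor and aldosterone-releasing actions of angiotensin II. It had 79 and 80 reads in the controls against 556 and 146 in *Eya1*cKO, or 2.26, 2.14, 24.6 and 8.32 CPM. The *Eya1*cKO libraries were both above the controls but far apart from each other. Its log2 fold change of 2.98 (standard error 0.68) was the largest of the 8 genes tested and the least certain of the 7 called (adjusted *P* = 0.041 in edgeR). It was 1.91 without *Eya1*cKO 1 and 3.47 without *Eya1*cKO 2. Without *Eya1*cKO 1 the values of *Ace* (2.62) and *Enpep* (2.08) were larger, so *Agtr1a* no longer ranked first. The call was lost without the filter on low counts, with the controls thinned to the *Eya1*cKO depth, and without control 1 or control 2, and the alternatives gave adjusted *P* values from 3.9e-07 to 0.56. The other AT1 gene, *Agtr1b*, had 0 and 1 reads in the controls against 0 and 0 in *Eya1*cKO. Per exonic length *Agtr2* was 7.02 and 7.09 times as abundant as *Agtr1a* in control 1 and 2 and 1.65 and 4.97 times in *Eya1*cKO 1 and 2, so that the ratio was lower in both *Eya1*cKO libraries. The difference in this ratio was not tested.

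The 3 other surface peptidases all rose. *Dpp4*, on chromosome 2 from 62330073 to 62412231 (minus strand), encodes a serine peptidase that removes dipeptides from incretins and chemokines. It had 2755 and 2995 reads in the controls against 6438 and 4714 in *Eya1*cKO, or 78.9, 80.0, 285 and 269 CPM. This 3.48-fold rise was far beyond the spread within a genotype (log2 fold change 1.80, standard error 0.10, adjusted *P* = 2.4e-04 in edgeR). Without control 1 or control 2 the adjusted *P* was 0.055 in either case, the highest over the alternatives, of which the lowest was 4.1e-53. Exons of the antisense gene *Gm13561* cover 3.67% of its exonic length.

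*Mme*, on chromosome 3 from 63241537 to 63386030 (plus strand), encodes neprilysin, a metallopeptidase that degrades natriuretic peptides, kinins and angiotensins. It had 2882 and 3210 reads in the controls against 3667 and 2587 in *Eya1*cKO, and rose 1.84-fold, from 84.1 ± 2.26 to 155 ± 10.5 CPM (log2 fold change 0.88, standard error 0.11, adjusted *P* = 0.0060 in edgeR). *Anpep*, on chromosome 7 from 79821803 to 79861059 (minus strand), encodes aminopeptidase N, which is abundant on the tubular brush border. It had 1373 and 1480 reads in the controls against 1833 and 1341 in *Eya1*cKO, and rose 2.0-fold, from 39.4 ± 0.147 to 78.8 ± 3.31 CPM (log2 fold change 1.0, standard error 0.15, adjusted *P* = 0.0097 in edgeR). For both genes the groups did not overlap, and these were the smallest rises of the 7 called. Without control 1 the adjusted *P* was 0.33 for *Mme* and 0.40 for *Anpep*, and without control 2 it was 0.31 and 0.42. Over the alternatives it ran from 1.6e-08 to 0.33 for *Mme* and from 2.8e-06 to 0.42 for *Anpep*.

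**Figure D2:**
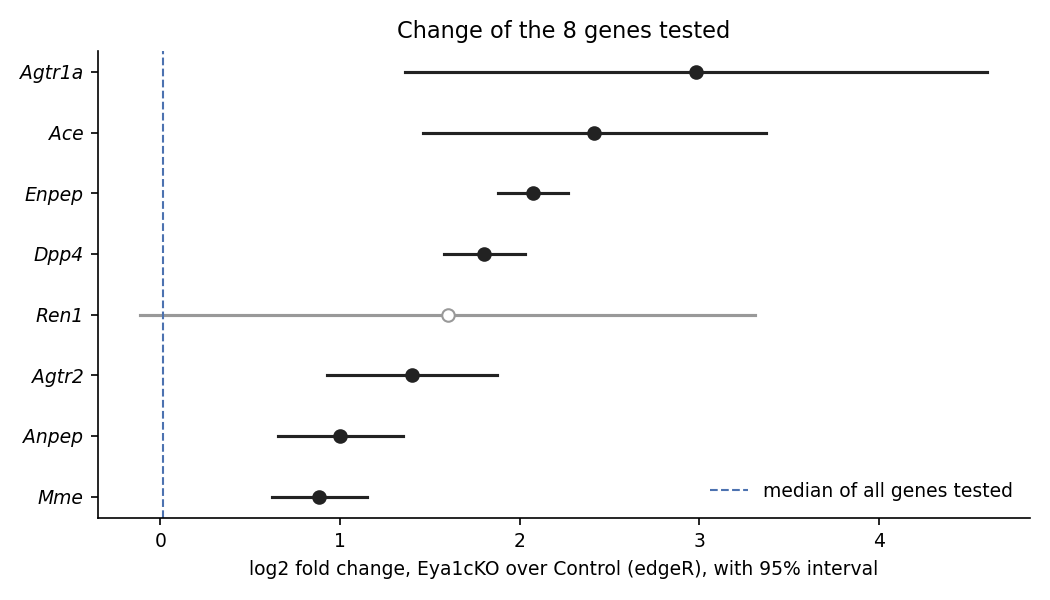
Log2 fold change, *Eya1*cKO over control, of the 8 genes tested, with 95% intervals from edgeR's quasi-likelihood fit. Filled points passed the threshold, the open point (*Ren1*) did not, and the dashed line is the median of all genes tested, 0.016. The interval is narrow for *Enpep* and *Dpp4* and widest for *Ren1* and *Agtr1a*.

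Levels of different genes were compared per kb of exonic length. In the controls the order was *Enpep* at 21.7 ± 0.768 CPM per kb, *Dpp4* at 12.6 ± 0.122, *Anpep* at 9.53 ± 0.036, *Mme* at 7.29 ± 0.196 and *Agtr2* at 5.57 ± 0.186, and the libraries of these neighbours did not overlap. *Agtr1a* at 0.789 ± 0.032, *Ace* at 0.742 ± 0.10 and *Ren1* at 0.655 ± 0.145 CPM per kb followed, and the libraries of *Ace* overlapped those of both neighbours. In *Eya1*cKO *Enpep* stood at 91.4 ± 1.45, *Dpp4* at 43.8 ± 1.81, *Anpep* at 19.1 ± 0.80, *Agtr2* at 14.7 ± 0.233 and *Mme* at 13.4 ± 0.907 CPM per kb. *Agtr2* and *Mme* thus exchanged places in the order, with 14.5 and 14.9 CPM per kb for *Agtr2* and 14.1 and 12.8 for *Mme* in *Eya1*cKO 1 and 2. This order rests on the exonic length, which joins all annotated exons of a gene, 11542 bases for *Mme* and 3326 for *Agtr2*. In CPM alone *Mme* stood above *Agtr2* in *Eya1*cKO, at 155 against 48.9. *Agtr1a* at 5.91 ± 4.13 and *Ace* at 4.04 ± 0.813 overlapped, and *Ren1* was at 2.04 ± 0.427 CPM per kb. Within a library, *Enpep* was 2.34 and 2.22 times as abundant per length as *Anpep* in control 1 and 2 and 4.61 and 5.0 times in *Eya1*cKO 1 and 2. Against *Dpp4* the same ratio for *Enpep* was 1.78 and 1.67 in the controls and 2.0 and 2.17 in *Eya1*cKO.

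**Figure D3:**
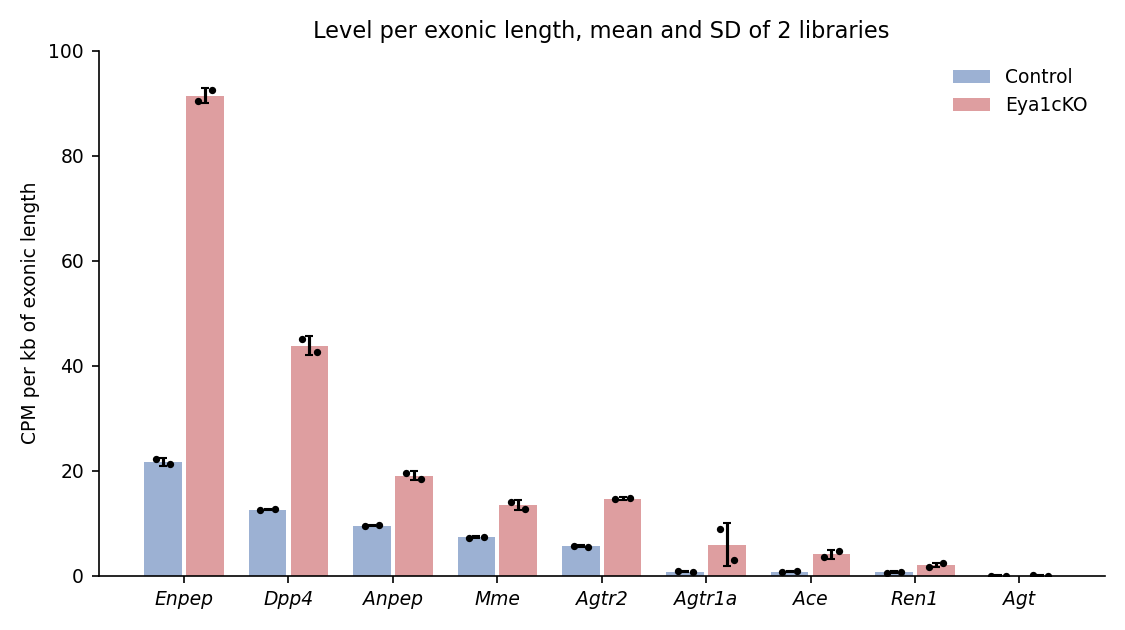
Level per kb of exonic length of the 9 genes, in CPM per kb on a linear axis from 0, for control (blue) and *Eya1*cKO (red). Bars are means, error bars are SD over 2 libraries, and black points are the libraries. *Enpep* rose from 21.7 to 91.4 CPM per kb, and among the 8 genes tested *Agtr1a* has the widest error bar relative to its mean in *Eya1*cKO.

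Other genes of the pathway were read from a list of 21 further renin-angiotensin, kinin and mineralocorticoid genes. Of these, 13 had enough reads to be tested, and 3 fell, beside 4.41% of all genes tested that were called lower. The other 10 did not pass, and the median log2 fold change of the 13 was 0.10. *Hsd11b2*, whose enzyme keeps cortisol and corticosterone off the mineralocorticoid receptor, had 1372 and 1555 reads in the controls against 416 and 419 in *Eya1*cKO, a difference of -0.96 on the log2 scale (standard error 0.23, adjusted *P* = 0.047 in edgeR). The soluble oligopeptidases *Prep* and *Thop1*, which can cut angiotensins inside or outside the cell, had log2 fold changes of -0.67 (adjusted *P* = 0.044 in edgeR) and -0.57 (adjusted *P* = 0.027 in edgeR). All 3 calls were lost without control 1 and without control 2, with adjusted *P* values from 0.52 to 0.65, and also without the filter on low counts, with values from 0.050 to 0.089. With thinned controls *Hsd11b2* (adjusted *P* = 0.070 in edgeR) and *Prep* (0.076) did not pass, nor did *Hsd11b2* when scaled by library totals (0.053).

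*Atp6ap2*, which encodes the prorenin receptor, had 1151 and 1178 reads in the controls against 836 and 517 in *Eya1*cKO. Its libraries overlapped between genotypes, and the log2 fold change of 0.06 had a 95% interval from -0.44 to 0.57 (adjusted *P* = 0.88 in edgeR), with the sign turned to -0.14 without *Eya1*cKO 1. *Mas1*, the receptor gene for angiotensin-(1-7), had 8 and 4 reads in the controls against 1 and 40 in *Eya1*cKO, and the filter on low counts removed it.

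Among 31 other peptidases, listed as surface or secreted but with some cytoplasmic members, 29 could be tested. Of these 6 rose, beside 5.15% of all genes tested that were called higher. The other 23 did not pass, and the median log2 fold change of the 29 was 0.77. The largest of these 6 rises was that of *Mep1a*, a subunit gene of the brush border protease meprin, with 73 and 59 reads in the controls against 656 and 128 in *Eya1*cKO. Its log2 fold change was 3.41, with an adjusted *P* of 0.046 in edgeR. Between its *Eya1*cKO libraries the gap ran the same way as for *Agtr1a*, and the log2 fold change was 1.99 without *Eya1*cKO 1 and 3.97 without *Eya1*cKO 2. Without *Eya1*cKO 1 the rise of *Ggt5* was larger, at 2.03, so *Mep1a* no longer ranked first. The gamma-glutamyltransferase genes *Ggt1* and *Ggt5*, neighbours whose enzymes act on glutathione and leukotrienes, had log2 fold changes of 1.76 (adjusted *P* = 0.014 in edgeR) and 1.73 (adjusted *P* = 0.041 in edgeR). The other 3 were *Naalad2* at 1.43, *Cpe* at 1.34 and *Ece1*, the endothelin-converting enzyme, at 0.67 on the log2 scale, and these 3 were named after their values were seen. All 6 calls were lost without control 1 and without control 2, with adjusted *P* values from 0.21 to 0.64. *Mep1a*, *Ggt5* and *Naalad2* also did not pass without the filter on low counts, with adjusted *P* values from 0.075 to 0.093 in edgeR, or with thinned controls, with values from 0.065 to 0.089. *Dpp8* and *Dpp9*, cytoplasmic relatives of *Dpp4*, had log2 fold changes of -0.08 and -0.15 that did not pass (adjusted *P* = 0.83 and 0.54 in edgeR), and were also named after their values were seen.

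**Figure D4:**
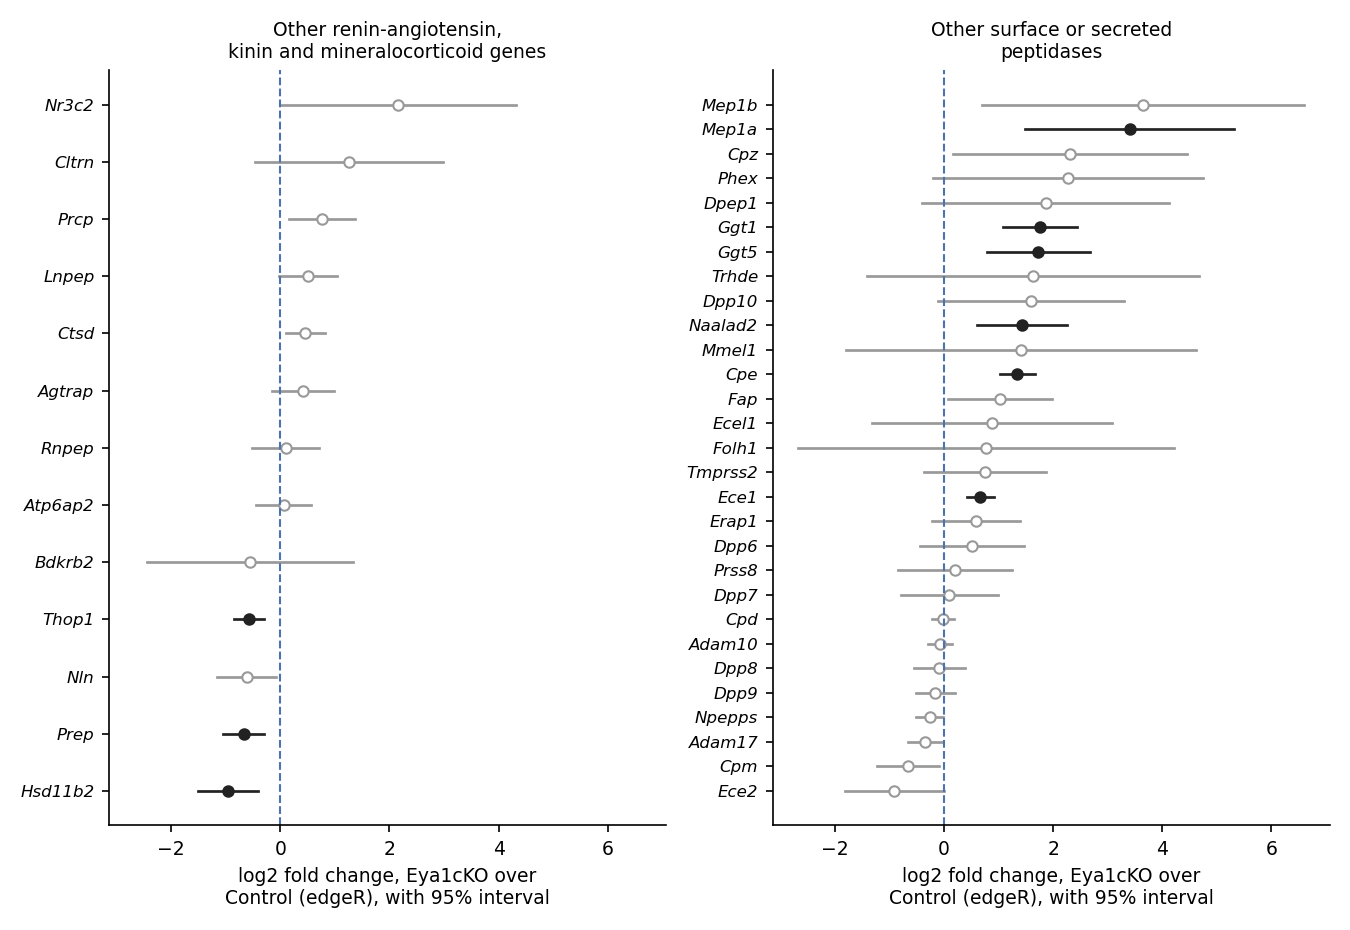
Log2 fold change, *Eya1*cKO over control, with 95% intervals from edgeR, of 13 other renin-angiotensin, kinin and mineralocorticoid genes (left) and of 29 other peptidases (right). The peptidases were listed as surface or secreted but include some cytoplasmic members. Filled points passed the threshold at an adjusted *P* of 0.05 and open points did not, and dashed lines mark 0. The 3 filled points at the left, *Hsd11b2*, *Prep* and *Thop1*, lie below 0, and the 6 filled peptidases at the right lie above 0.

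Markers of cell types in which these genes are known moved with genotype. Beside the calls in each marker list stand the shares over all genes tested, 5.15% called higher and 4.41% lower. All 10 podocyte markers rose, and their sum went from between 597 and 602 CPM in the controls to between 2690 and 2722 CPM in *Eya1*cKO. Of 14 proximal tubule markers 11 could be tested and 6 rose, with sums from 125 to 128 CPM in the controls and from 484 to 503 CPM in *Eya1*cKO, while *Ttr* was listed at 0 and *Gatm* had at most 3 reads in every library. All 8 endothelial markers rose, with sums from 618 to 629 and from 1068 to 1127 CPM. Of 12 renin-lineage, mesangial and mural markers 6 rose and 1 (*Des*) fell, with sums from 711 to 768 and from 950 to 1021 CPM. Among them *Akr1b7*, a gene known from renin cells and also from the adrenal cortex, had 143 and 233 reads in the controls against 844 and 1003 in *Eya1*cKO. Of 9 renal stroma markers 4 rose and 1 (*Tbx18*) fell, with sums from 804 to 821 and from 1058 to 1079 CPM. *Des*, *Akr1b7* and *Tbx18* were named after their values were seen.

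Markers of the adrenal gland were also higher. All 10 adrenal cortex markers rose, with sums from 73.5 to 83.5 CPM in the controls and from 979 to 1057 CPM in *Eya1*cKO, and 8 of 9 markers of the adrenal medulla and sympathetic neurons rose, with sums from 10.8 to 15.0 and from 535 to 570 CPM. The adrenal cortex is a known site of *Agtr1a*, *Agtr2* and, in the mouse embryo, *Ren1* expression. Hepatocyte markers, which stand for the main source of *Agt*, summed to 5.53 and 5.77 CPM for the controls against 23.0 and 31.6 CPM for *Eya1*cKO, with 1 of 4 tested called higher and *Ahsg* at 0 in every library. The erythroid list summed to at most 1.37 CPM, with *Hba-a1*, *Hba-a2* and *Hbb-bs* at 0 reads in every library, and the leukocyte list to between 110 and 125 CPM in all 4 libraries. The peptidase gene *Ide*, which most cells use, was listed at 0 in all 4 libraries too, so a gene listed at 0 in these files, such as *Ttr*, *Ahsg* or these globins, may not have been without transcripts.

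Nephron progenitor markers moved the other way. All 10 fell, the deleted gene *Eya1* among them, to sums of 430 and 390 CPM in *Eya1*cKO. The 9 others summed to 1899 and 1919 CPM in the controls against 414 and 378 in *Eya1*cKO. The test also called lower 5 of 10 renal vesicle and early nephron markers (sums from 1539 to 1544 and from 920 to 1033 CPM) and 2 of the 8 ureteric bud markers tested (sums from 175 to 176 and from 93.3 to 96.9 CPM). The part of any of these cell types in the rise of the 9 genes was not tested.

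**Figure D5:**
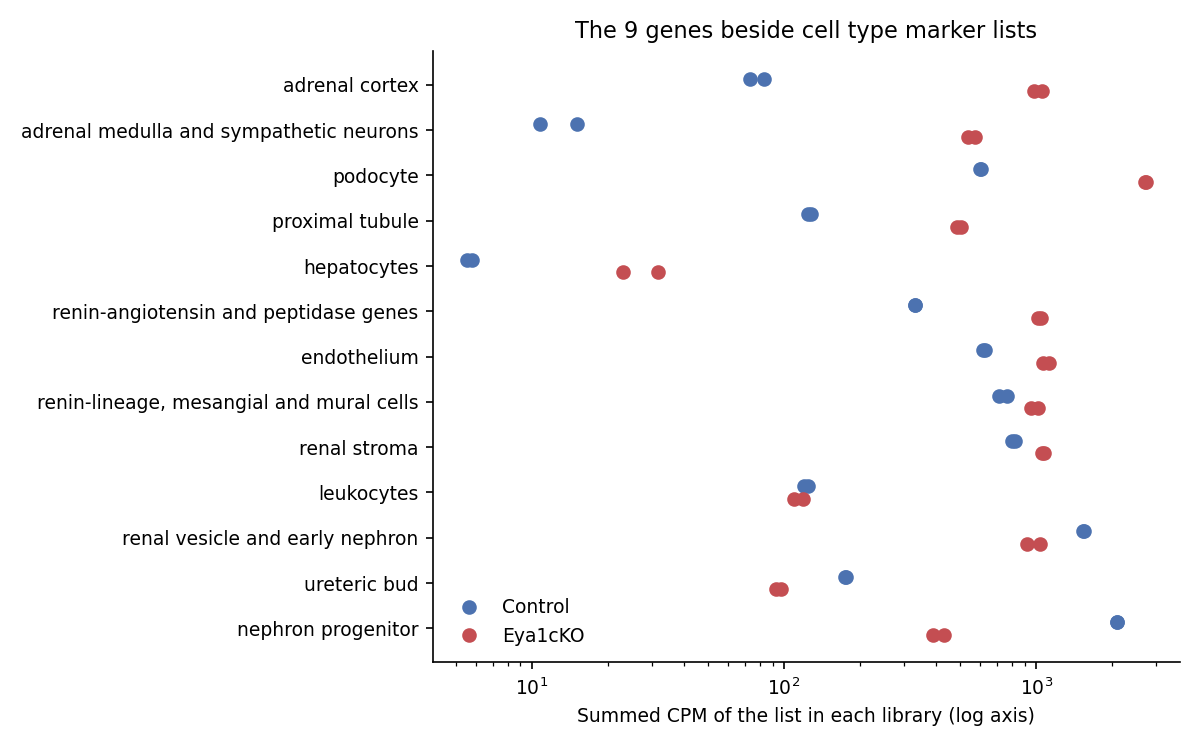
Summed CPM of the 9 genes and of 12 cell type marker lists in each library, on a log axis, with controls in blue and *Eya1*cKO in red, ordered by the median log2 fold change of the list from lowest at the bottom to highest at the top. The 9 genes lie at 331 CPM in both controls and at 1048 and 1014 CPM in *Eya1*cKO. The adrenal and sympathetic lists shift furthest to the right and the nephron progenitor list shifts to the left. The erythroid list, of which no gene was tested, is not drawn.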

How the data were processed

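RNA-seq reads of 4 libraries (control 1 and 2, *Eya1*cKO 1 and 2) were mapped by the authors to mm10 with HISAT2 and counted on Ensembl release 90 genes with HTSeq-count, and what they deposited are these raw counts. The tool versions, the strand setting and read trimming are not given in the sources used here. For the material, the labels give 6 kidneys per genotype from 4 females, and the methods give other numbers. Reads on no gene were left out of library sizes.

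Counts were tested in R 4.3.3 with edgeR 4.0.16: filterByExpr (minimum count 10), TMM, glmQLFit and glmQLFTest (legacy = FALSE) on genotype, with Benjamini-Hochberg adjustment over 19041 genes. Standard errors were derived from F and the fold change. The script was tested on simulated data. DESeq2 1.42.0, other scalings and filters, thinning, a replicate block and leaving out each library were alternatives. Positions and exonic lengths came from GENCODE M21 (GRCm38, the assembly of mm10), a later annotation than the one counted on.

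All 9 genes are named. From the related lists, the 3 called genes with the largest change in each direction are named, with *Atp6ap2*, *Agtr1b* and *Mas1*, and 1 listed gene is not reported here. For each called gene of the 9, the 2 genes with the nearest profile are also named. The genes and lists were chosen with earlier results of these data known, and the motifs after the results were seen.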

Additional observations from a re-analysis of the deposited data

How the results depend on the processing

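Over the 8 genes tested and 11 alternatives, 70 of the 88 log2 fold changes kept their direction and side of the threshold, 17 lost the call, 1 gained it and 0 turned direction. *Agtr1a* was not called without the filter on low counts (2.96) or with thinned controls (2.98). With a replicate block the members called fell from 7 to 4, since *Agtr1a* (2.89), *Agtr2* (1.40) and *Anpep* (1.0) did not pass. The libraries share only a number (correlation of the deviations of control 1 and *Eya1*cKO 1 across genes, 0.013). With each library left out in turn, log2 fold changes ran from 1.91 to 3.47 for *Agtr1a*, 1.35 to 1.41 for *Agtr2*, 2.20 to 2.62 for *Ace*, 1.38 to 1.83 for *Ren1*, 0.80 to 0.93 for *Mme*, 0.94 to 1.02 for *Anpep* and 1.75 to 1.83 for *Dpp4*, and from -0.14 to 0.18 for *Atp6ap2*; from 1 to 8 of the 9 genes were called higher. Over all genes, 1820 were called (981 higher, 839 lower). The count was 1055 (548, 507) without the filter, 3102 (1808, 1294) with DESeq2's Wald test, 621 (358, 263) with the block, and 638 higher with thinned controls. With each library left out it ran from 23 to 7925, from 15 to 4443 higher and from 7 to 3482 lower. The cause of these differences was not tested. The libraries of *Eya1*cKO differed more from each other (chi-square per degree of freedom 49.7) than those of control (9.68). Counts were too low to test *Agt*, *Agtr1b* and *Mas1*. Of the related genes, *Hsd11b2*, *Prep*, *Thop1*, *Ggt5*, *Naalad2* and *Ece1* were not called with the block (adjusted P from 0.056 to 0.13 in edgeR). Other scalings moved the median of all genes by at most 0.038.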

Other observations

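The genes whose profile over the 4 libraries lay nearest to each called gene were found by the Euclidean distance of log2 CPM, centred on each gene's mean, as a description over 4 libraries. Nearest to *Enpep* were *Stab2* (distance 0.053) and the podocyte gene *Thsd7a* (0.121). Nearest to *Dpp4* were *Gcnt1* (0.062) and *Tcim* (0.091). For *Agtr1a*, with its uneven *Eya1*cKO libraries, they were *Tecta* (0.241), with 35 and 38 reads in the controls against 225 and 73 in *Eya1*cKO, and *Gimd1* (0.256). For *Agtr2* they were *Stat6* (0.037) and *Arhgap29* (0.047), and for *Ace* the neuronal genes *Ina* (0.037) and *Mapt* (0.125). *Mme* lay nearest to *Malt1* (0.035) and *Dmxl2* (0.056), and *Anpep* to *Gadd45a* (0.028) and the chemokine gene *Cxcl12* (0.028). With 4 libraries in 2 groups, a near profile mostly says that the fold change was alike.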
